A study of Mus musculus with 12 samples.

Results

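Mouse macrophages that had been primed with monophosphoryl lipid A (MPLA) and then left for 3 d were compared with macrophages that never met MPLA, across every gene in the authors' deposited table for that comparison. The members are all 23248 genes that the table lists, of 24351 genes listed in any of the series' 3 comparison tables. The cells were bone marrow-derived macrophages of male C57BL/6 mice aged 8 to 16 weeks, grown for 7 d in medium with 10% serum and 10 ng/mL of macrophage colony-stimulating factor (M-CSF), which stayed in the medium of both groups to the end. The control group of 3 libraries was not exposed to MPLA, and the 3 libraries of the primed group were harvested 3 d after priming had ended. No genotype other than wild type enters the comparison. The labels do not give the length of priming of the 3 d group or the time at which the controls were harvested, so time in culture and priming cannot be told apart. Nor do they tie libraries to separate animals or cultures, so the p-values rest on the spread among libraries, and that spread may be technical. The same 3 control libraries also serve the authors' comparisons with macrophages taken after 4 h and 24 h of MPLA, whose values are set beside those at 3 d for the same genes, with no test between tables.

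MPLA is a detoxified form of the lipid A of bacterial endotoxin and is recognised by Toll-like receptor 4 (TLR4) with its partners CD14 and MD-2. TLR4 signals through the adaptor MyD88, which leads to NF-kB and inflammatory cytokines, and through the adaptor TRIF, which leads to interferon beta and, by way of its receptor, to interferon response genes. Macrophages that have met such a ligand can respond differently to a later infection, a state studied as tolerance, priming or innate training. The 3 d group holds such cells 3 d after priming had ended.

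The table gives values for each comparison and none for single libraries, so no level, standard deviation or replicate value is printed here. A gene is called here where the DESeq2 adjusted p that the authors deposited is under 0.05, and fold changes are the log2 values of the DESeq2 columns, turned to primed over control, so that 1 is a doubling. Whether these log2 values were drawn towards 0 for genes with few reads is not stated in the sources used here. The tables do not state the direction of their log2 values. It was taken from the group order in the tables' names and from genes known to be induced by lipid A, so the inflammatory and interferon genes below are not independent evidence of that direction.

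The primed macrophages still differed from control at 3 d in most of the genes that could be tested, largely by small steps with a short tail of large ones. Of 15111 genes with an adjusted p in the authors' deposited table, 4456 (29.5%) rose and 3892 (25.8%) fell, 8348 (55.2%) in all. Changes under 2-fold made up 3492 (78.4%) of the genes that rose and 3106 (79.8%) of those that fell, and the median change of the called genes was 0.44 and -0.48 in the authors' deposited table. At least 2-fold changes were seen in 964 genes that rose (6.38% of those tested) and 786 that fell (5.2%). The large changes lay mostly on the higher side: 130 genes rose and 28 fell at least 8-fold, and 25 rose and 3 fell at least 32-fold, by the authors' deposited table. These fold counts do not leave out genes listed at 0 in a group, whose folds are not measured. Of the called genes, 26 that rose were listed at 0 in control and 3 that fell in the primed libraries.

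How the calls divide between higher and lower depended on which of the authors' columns was read. The deposited edgeR columns, which test all 23248 genes, called 3611 genes higher (15.5%) and 6450 lower (27.7%), so that 35.9% of the calls were higher with edgeR against 53.4% with DESeq2. Over the 15082 tested genes with reads in both groups, the median change in the authors' deposited table was -0.02 by DESeq2 and -0.15 by edgeR. No gene called by DESeq2 was called in the opposite direction by edgeR: 3406 of the 4456 that rose and 3892 of the 3892 that fell were called the same way. The gap between scaled and unscaled ratios corresponded to 2.32 times as many reads in the primed libraries at 3 d as in control, against 0.859 at 4 h and 0.934 at 24 h. The part of this depth gap in the calls was not tested.

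Macrophage markers were present in both groups and were mixed in direction. All 10 markers of the fixed macrophage list were tested in the authors' deposited table, and 6 rose (Adgre1, Cd14, Fcgr1, Itgam and Cd68 among them) while 4 fell (Csf1r, Mertk, Lyz2 and Cd163), beside 29.5% and 25.8% of all genes tested. Markers of other cell types were few among the tested genes. None of the 3 natural killer cell markers in the table could be tested, and 2 of 7 neutrophil, 3 of 7 B cell and 3 of 5 T cell markers could. The T cell genes Cd3d and Cd3e and the stromal gene Dcn were listed at 0 in the control libraries. Of the tested markers, 1 of 2 for neutrophils rose (Camp), 2 of 5 for dendritic cells fell (Itgax and Clec9a), 2 of 3 for T cells rose (Cd5 and Cd4), 1 of 2 for mast cells fell (Kit) and 1 of 5 for stroma rose (Dcn). For endothelium 2 of 4 rose and 1 fell, for osteoclasts 2 of 5 rose and 1 fell, for megakaryocytes 2 of 3 fell, and the 1 tested erythroid marker, Epor, fell. The levels of these markers in single libraries are not in the table, and their part in the results below was not tested. Ighm, the heavy chain of immunoglobulin M, fell by 6.42, while the B cell markers Cd22 and Cd79b rose by 1.48 and 0.47 in the authors' deposited table. In such bulk libraries, fewer cells of a type and less RNA per cell cannot be told apart.

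The largest increases included secreted acute-phase and antimicrobial proteins, a chemokine, nonclassical MHC molecules and surface receptors. Saa3, an acute-phase serum amyloid A protein of macrophages (ENSMUSG00000040026, chromosome 7, 46711998 to 46715700), rose most, by 8.22 or 298-fold in the authors' deposited table, with a deposited DESeq2 adjusted p of 0, that is, below the smallest number stored. Lcn2, the siderophore-binding protein lipocalin 2 (chromosome 2, 32384633 to 32388252), rose by 7.27 (DESeq2 adjusted p 4.81e-186), with a standard error of 0.249 if the deposited p is from a Wald test, which the sources do not state. Lox, the collagen cross-linking enzyme lysyl oxidase, rose by 7.22, and Ccl5, a chemokine that draws T cells (chromosome 11, 83525778 to 83530518), by 6.91 in the authors' deposited table.

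Surface molecules were among the next genes in the order. H2-Q6 and H2-Q7, nonclassical MHC class I chains, rose by 6.67 and 6.59 in the authors' deposited table, but 32% and 26.4% of their 50-base windows occur in other genes, so reads could have been split between them. Fpr1, a receptor for bacterial formyl peptides, Ly75, the endocytic receptor DEC-205, and Cd38, which breaks down NAD, rose by 6.17, 6.05 (6.76 by edgeR) and 6.03. The adenosine receptor gene Adora2a rose by 5.82 (6.92 by edgeR), and Nos2, the inducible nitric oxide synthase (chromosome 11, 78920787 to 78960254), by 5.72 with a standard error of 0.270 on the same assumption. Slfn1 and Slfn4 of the Schlafen family, the complement factor gene Cfb and Oasl1, an interferon-induced regulator of translation, closed the 15 highest coding genes at 5.98 (6.61 by edgeR), 5.53, 5.48 and 5.48 in the authors' deposited table. Of Cfb, 73% of the windows occur in other genes, and of Slfn4, 10.8%.

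Beside the values under MPLA, these genes fell into different patterns. Nos2 stood at 12.13 at 4 h, 10.39 at 24 h and 5.72 at 3 d in the authors' deposited tables, and Adora2a at 10.26, 9.75 and 5.82. Lox, by contrast, stood at 3.73, 6.41 and 7.22, the only one of the 15 whose 3 d value was above both others. Saa3 stood at 5.40, 9.78 and 8.22, and Ly75 at 2.76, 6.44 and 6.05, both with a 3 d value between the other two. At 4 h and 24 h, 62.9% and 64.6% of the genes tested were called. Each table was normalized on its own and shares its controls with the others, and the differences between times were not tested.

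**Figure D1:**
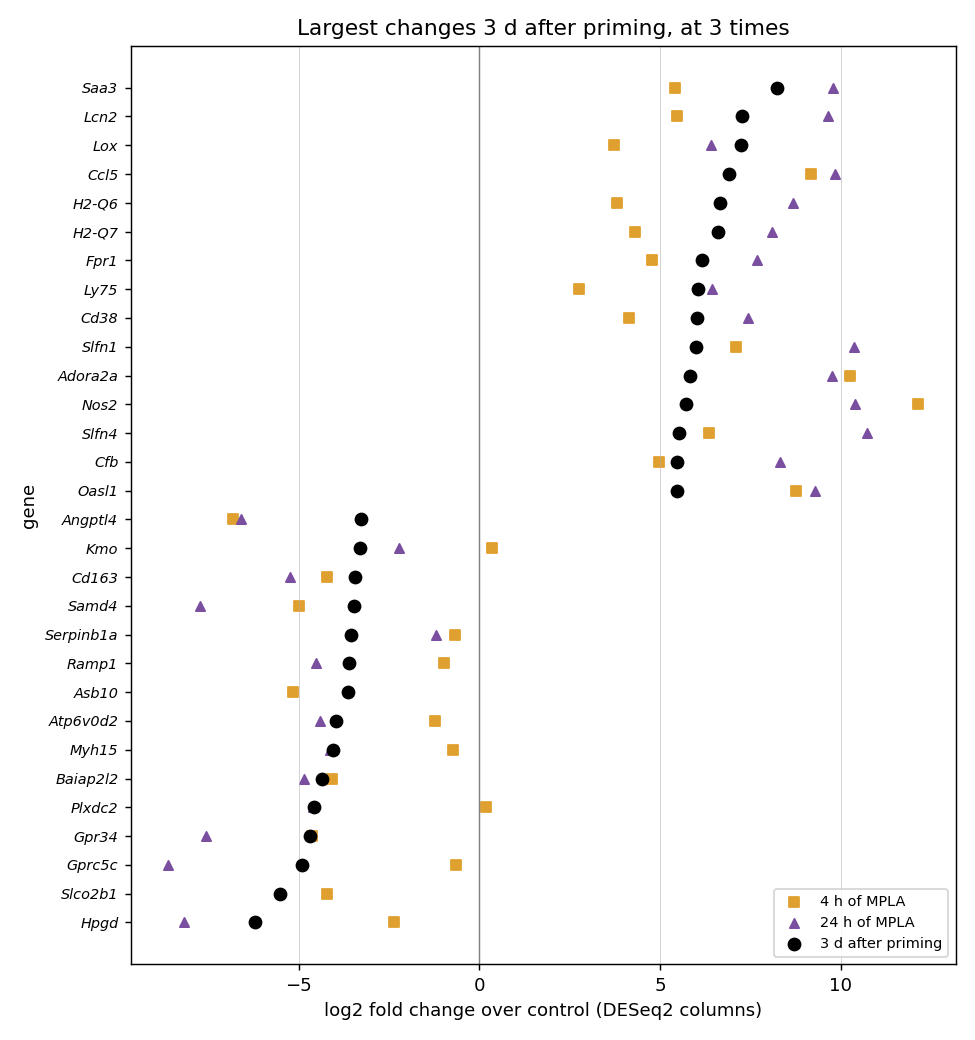
The 15 highest and 15 lowest coding genes at 3 d, called by DESeq2 and edgeR, with the log2 fold change over control on the x axis (DESeq2 columns of the authors' deposited tables) and 1 row per gene. Circles are 3 d after priming, squares 4 h and triangles 24 h of MPLA; Saa3 at 8.22 and Hpgd at -6.22 mark the ends at 3 d, and Slco2b1 and Asb10 have no triangle because they are listed at 0 at 24 h.

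The largest decreases included an enzyme of prostaglandin breakdown, a transporter and several receptors. Hpgd, the enzyme that inactivates prostaglandins (ENSMUSG00000031613, chromosome 8, 56294585 to 56321043), fell by 6.22, which is 74.7-fold lower, in the authors' deposited table (DESeq2 adjusted p 8.53e-216, standard error 0.198 on the Wald assumption). Slco2b1, an organic anion transporter, fell by 5.52, and the orphan receptor genes Gprc5c and Gpr34 stood at -4.90 and -4.69. Plxdc2, Baiap2l2, which shapes membranes, and the myosin gene Myh15 fell by 4.57, 4.37 and 4.05 in the authors' deposited table. In its edgeR columns Baiap2l2 stood at -6.17 and Myh15 at -5.36, so the order of these genes depends on the column. Atp6v0d2, a subunit of the vacuolar proton pump that marks macrophages and osteoclasts, fell by 3.97, and Cd163, the scavenger receptor for haemoglobin bound to haptoglobin, by 3.45.

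The remaining genes among the 15 lowest were Asb10 at -3.65 (-4.25 by edgeR), Ramp1, a partner of the calcitonin receptor-like receptor, at -3.61, the protease inhibitor gene Serpinb1a at -3.55, Samd4 at -3.48, Kmo of the kynurenine pathway at -3.30 and the lipase inhibitor gene Angptl4 at -3.27 in the authors' deposited table. Some of these stood close to control at 4 h. Plxdc2 stood at 0.17 at 4 h and -4.61 at 24 h, and Kmo at 0.35 and -2.24, in the authors' deposited tables. Others were lowest earlier: Angptl4 stood at -6.83 and -6.61 and Samd4 at -4.98 and -7.74. Serpinb1a stood at -0.67, -1.20 and -3.55 across the 3 times, lowest at 3 d.

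Ordered by p rather than by size, the leading genes included others outside the largest changes. Among those that rose were the MHC class I gene H2-M2 at 5.39, Siglece, an inhibitory receptor for sialic acids, at 5.19, and the interferon response gene Ifi44 at 5.19 in the authors' deposited table. Among those that fell were Ighm (chromosome 12, 113418558 to 113422730) at -6.42, the peroxisomal transporter gene Abcd2 at -2.98, Cenpa, the histone variant of centromeres, at -2.69, and the transferrin gene Trf at -2.39. The windows of Trf are shared with other genes by 59.4%.

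The DNA just upstream of some of the changed genes carries short motifs, and 3 promoters that hold the interferon motif are printed. Of these genes, Saa3 is not on the interferon response list, and whether it responds to interferon was not tested. The interferon-stimulated response element was searched on both strands as GAAA, any 2 bases and again GAAA. Each line gives the 150 bases before the transcription start in the RefSeq table of build GRCm38.p6, in the direction of the gene, with matches in capitals. The genes were chosen as examples after their values were seen. Saa3 lies at chr7:46715677-46715826 on the minus strand, Ifit1 at chr19:34640739-34640888 on the plus strand and Isg15 at chr4:156200819-156200968 on the minus strand.
Saa3: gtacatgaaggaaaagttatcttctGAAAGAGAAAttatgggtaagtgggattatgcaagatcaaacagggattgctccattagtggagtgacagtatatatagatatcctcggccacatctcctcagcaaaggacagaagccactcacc
Ifit1: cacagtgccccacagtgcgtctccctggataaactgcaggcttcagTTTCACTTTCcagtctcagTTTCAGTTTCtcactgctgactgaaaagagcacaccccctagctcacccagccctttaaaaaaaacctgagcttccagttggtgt
Isg15: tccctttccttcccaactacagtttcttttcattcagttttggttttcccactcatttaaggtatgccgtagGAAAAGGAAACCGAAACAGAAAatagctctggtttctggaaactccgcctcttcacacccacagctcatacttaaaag

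The match in Saa3 ends 115 bases before the start site, Ifit1 holds 2 matches on the opposite strand and Isg15 a chain of 3 that overlap. Across all 27025 promoters of the table, 3.46% hold this motif within the 250 bases before the start. Among the genes of MHC class I presentation, 17 of 20 had a promoter in the table and 3 of those (17.6%) held it. A match is a description of the letters and not of bound factor.

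For the NF-kB branch and for the cell cycle, 3 further promoters are printed, chosen in the same way. The NF-kB motif was searched as GGGA, any base, TT, any base and CC, and the cell cycle homology region, an element of mitotic promoters, as TTTGAA, each on both strands. Il6 lies at chr5:30012964-30013113 on the plus strand, Nfkbia at chr12:55492648-55492797 on the minus strand and Cdc20 at chr4:118437344-118437493 on the minus strand.
Il6: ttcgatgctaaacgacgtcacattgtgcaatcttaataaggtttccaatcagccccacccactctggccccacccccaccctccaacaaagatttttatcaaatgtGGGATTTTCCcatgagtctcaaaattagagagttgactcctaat
Nfkbia: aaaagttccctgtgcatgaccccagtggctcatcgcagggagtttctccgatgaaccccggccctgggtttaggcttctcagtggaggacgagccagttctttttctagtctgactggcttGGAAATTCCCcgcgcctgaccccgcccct
Cdc20: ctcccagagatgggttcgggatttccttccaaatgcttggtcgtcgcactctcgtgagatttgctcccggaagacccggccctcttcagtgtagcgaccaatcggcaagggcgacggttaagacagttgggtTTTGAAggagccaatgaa

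The NF-kB match ends 34 bases before the start in Il6 and 19 in Nfkbia, and 1.13% of all promoters of the table hold one. Among the feedback inhibitors described below, 28 of 33 had a promoter in the table and 4 of those (14.3%) held it. The TTTGAA match of Cdc20 ends 12 bases before the start, and so short a motif occurs in 18.3% of all promoters. For the genes that changed at least 2-fold, under 80% could be matched to the promoter table, so no share over them is given.

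Most secreted inflammatory mediators were raised. Of 23 tested cytokines, chemokines and related mediators, 20 rose, 1 fell and 2 were not called, with the median at 1.77 in the authors' deposited table beside -0.02 for all tested genes. With DESeq2, the shares of all genes tested to set beside this and every later list are 29.5% higher and 25.8% lower. Ccl5 led at 6.91, followed by the monocyte chemokine gene Ccl8 at 3.90 (4.79 by edgeR) and Ptgs2, the inducible enzyme of prostaglandin synthesis, at 3.51. The medians of the list at 4 h and 24 h were 8.10 and 5.77 in the authors' deposited tables.

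The classical cytokines sat lower in the order. Tnf stood at 2.07 at 3 d after 8.19 at 4 h and 5.36 at 24 h, and Il1b at 1.50 after 8.10 and 7.07, in the authors' deposited tables. Il6 rose by 1.32 at 3 d (DESeq2 adjusted p 3.59e-03) and stood at 12.55 and 8.95 at the earlier times. Il12b, which encodes the shared subunit of interleukins 12 and 23, stood at 0.13 with no adjusted p at 3 d, after 12.57 and 9.72, in the authors' deposited tables. The 1 member that fell was Il18, by 0.24 (DESeq2 adjusted p 0.0415). Without the filter on low counts 0 members were called lower by DESeq2, and edgeR called 2 lower. Lif, Il12a, Csf3 and Csf2 of this list were listed at 0 in the control libraries, so no fold can be given.

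Interferon response genes had the highest median of the 36 lists. Of 44 tested members 42 rose, 39 of them at least 2-fold, and 1 fell, with the median at 2.04 in the authors' deposited table and 4.75 and 3.84 at 4 h and 24 h. The highest were Oasl1 at 5.48, Ifi44 at 5.19 and the DNA sensor gene Ifi205 at 4.91. Ifit1 and Rsad2, antiviral effectors, rose by 3.42 and 3.26, and Isg15, a ubiquitin-like modifier, by 2.83 in the authors' deposited table; these 3 were named after their values were seen. Cxcl10, a chemokine for activated T cells, stood at 2.44 at 3 d beside 10.87 and 8.36 at the earlier times.

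Ifnb1, the interferon that TRIF signalling induces, rose by 1.61 (DESeq2 adjusted p 2.05e-03; 3.87 in the edgeR column), beside 8.90 and 5.65 at 4 h and 24 h in the authors' deposited tables. Irf8, a transcription factor of myeloid cells, was the only member that fell, by 0.22. Cxcl9, which is known as a target of interferon gamma, stood at -0.63 and was not called (DESeq2 adjusted p 0.221), although it stood at 12.11 and 9.15 at the earlier times in the authors' deposited tables.

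The interferon-inducible GTPases and Schlafens, which act against intracellular pathogens, moved as a block. All 24 tested members rose, 21 of them at least 2-fold, with the median at 1.72 in the authors' deposited table beside 5.91 and 4.15 at 4 h and 24 h. Of the members, 1 was listed at 0 in control, so its fold is not measured and it is not in the median. Besides the Schlafen genes Slfn1 and Slfn4, the highest was Gbp6 at 5.27. These families hold copies that share sequence to unequal degrees. Of Gbp6, 70.7% of the windows are shared with other genes, and of Slfn4, 10.8%, so the value of a single copy can be uncertain.

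**Figure D2:**
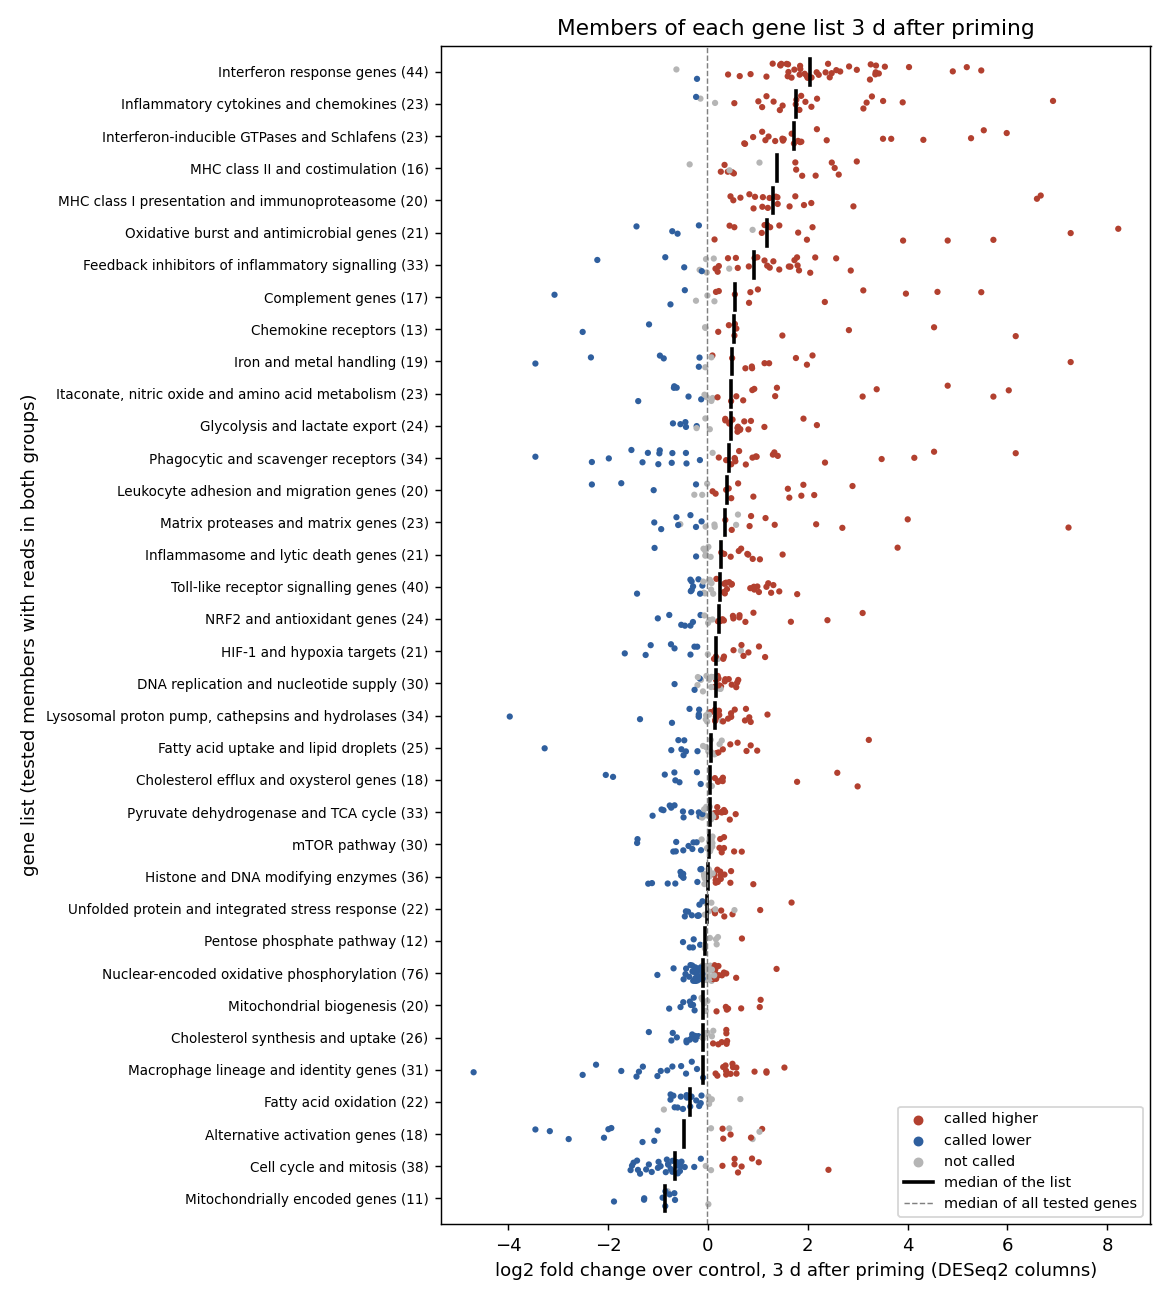
Every tested member with reads in both groups of the 36 gene lists, 1 point per gene, with the log2 fold change at 3 d on the x axis (DESeq2 columns of the authors' deposited table) and the number of members in brackets. Red points were called higher, blue lower and grey not called; the black bar is the median of the list, from 2.04 for interferon response genes to -0.85 for the mitochondrially encoded genes, and the dashed line the median of all tested genes at -0.02.

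The receptor itself was close to its control level, whereas its co-receptor gene Cd14 and most feedback inhibitors were raised. Tlr4 fell slightly, by 0.16 (DESeq2 adjusted p 6.82e-05, 95% interval -0.23 to -0.08 on the Wald assumption), beside -0.08 and -0.38 at 4 h and 24 h in the authors' deposited tables. Cd14, which hands lipid A to TLR4, rose by 1.17, and Lbp, which carries it in serum, by 1.79. The adaptor genes Myd88 and Ticam1 (TRIF) rose by 0.35 and 0.32 in the authors' deposited table. Tlr2, the receptor for lipopeptides, rose by 1.43, and Tlr5, the receptor for flagellin, fell by 1.42 beside -4.51 and -4.50 at the earlier times.

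Across the Toll-like receptor signalling list, 21 of 40 tested members rose and 9 fell, with the median at 0.25 in the authors' deposited table. Ikbke, a kinase of the interferon branch, rose by 1.31, and the kinase gene Irak4 and its downstream partner Tab1 fell by 0.35 and 0.34.

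Feedback inhibitors of this signalling were mostly raised. Of 33 tested members 24 rose, 15 at least 2-fold, and 4 fell, with the median at 0.93 in the authors' deposited table beside 2.25 and 1.93 at 4 h and 24 h. Dusp4, a phosphatase of MAP kinases, rose by 2.86, beside 0.91 and 1.95 at the earlier times. Il1rn, the antagonist of the interleukin 1 receptor, rose by 2.57, and Socs1, which blocks JAK kinases, by 2.15 in the authors' deposited table.

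Irak3, the pseudokinase that restrains MyD88 signalling, rose by 2.05, beside 1.05 and 3.01 at 4 h and 24 h in the authors' deposited tables. Socs3 and Tnfaip3, the ubiquitin-editing enzyme A20, rose by 1.80 and 1.79, and Nfkbia, the inhibitor that holds NF-kB in the cytoplasm, named after its value was seen, by 1.24. Il10, the anti-inflammatory cytokine, stood at 0.43 and was not called (DESeq2 adjusted p 0.188), after 4.27 and 2.62 at the earlier times. The lowest members were Socs2 at -2.21 (-2.83 by edgeR), Dusp5 at -0.85 and Sh2b3 at -0.47 in the authors' deposited table.

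Antigen presentation was raised on both MHC routes. All 20 tested genes of class I presentation and the immunoproteasome rose, with the median at 1.30 in the authors' deposited table and 2.71 and 2.41 at 4 h and 24 h. After H2-Q6 and H2-Q7, H2-Q4 was highest at 2.92. H2-K1, a classical class I chain, and B2m, the light chain common to them, rose by 2.07 and 1.40, and Nlrc5, their transcriptional activator, by 1.64, these 3 named after their values were seen.

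Of 16 tested class II and costimulation genes, 13 rose and none fell, with the median at 1.39 by DESeq2 in the authors' deposited table beside 1.29 and 2.66 at 4 h and 24 h; edgeR called 1 of them lower. Cd274, the inhibitory ligand PD-L1, rose by 2.98, and the class II chain genes H2-Aa and H2-Ab1 by 2.62 and 2.54. Ciita, the master activator of class II genes, rose by 2.16, and Cd40, the receptor for T cell help, by 1.77, in the authors' deposited table. Cd40 had stood at 9.72 and 6.59 at the earlier times and H2-Aa at 0.91 and 3.18.

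Antimicrobial genes were mostly raised, while lysozyme fell. Of 21 tested members of the oxidative burst and antimicrobial list, 16 rose and 4 fell, with the median at 1.19 in the authors' deposited table. Saa3, Lcn2 and Nos2, described above, were the highest, and haptoglobin (Hp), ceruloplasmin (Cp) and cathelicidin (Camp, also a neutrophil marker) rose by 2.10, 1.98 and 1.43 (Camp 2.97 by edgeR). The lysozyme genes Lyz2 and Lyz1 fell by 1.43 and 0.71, with 15.4% and 16% of their windows shared, and Wfdc17 fell by 0.61 in the authors' deposited table.

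Phagocytic and scavenger receptors changed in both directions. Of 34 tested members 19 rose and 14 fell, with the median at 0.42 in the authors' deposited table. Fpr1 led with Fpr2, another formyl peptide receptor, at 4.53, Clec4e, the receptor Mincle for mycobacterial glycolipids, at 4.13 and the scavenger receptor gene Marco, named after its value was seen, at 3.48. Those that fell included Cd163, the integrin gene Itgax at -2.32 and Colec12 at -1.98 in the authors' deposited table. Mrc1, the mannose receptor, fell by 1.31, and Mertk, which takes up dying cells, by 0.71. Mrc1 had stood at -0.60 and -5.67 at 4 h and 24 h.

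Complement genes rose in 11 of 17 tested members and fell in 3, with the median at 0.54 in the authors' deposited table. Besides Cfb, the decay-accelerating factor gene Cd55 rose by 4.60, beside 2.60 and 2.27 at the earlier times, and C3, the central component, by 3.97. Among those that fell were Cd46 at -0.75 and C5ar2 at -0.46.

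Genes of alternative activation, the state set by interleukin 4, leaned lower. Of 18 tested members 5 rose and 9 fell, and all 9 fell at least 2-fold, with the median at -0.47 in the authors' deposited table beside 0.27 and 0.06 at 4 h and 24 h. The chemokine gene Ccl24 and the transcription factor gene Egr2 fell by 3.17 (Ccl24 at -4.75 by edgeR) and 2.79, and fibronectin (Fn1) by 1.07. Tgm2 and Klf4 rose by 0.86 and 0.45 in the authors' deposited table. Arg1 stood at -0.38 with no adjusted p.

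A metabolic gene with a role in defence was among the raised genes. Irg1 (Acod1), which makes itaconate from a citric acid cycle intermediate, rose by 4.80 in the authors' deposited table, beside 10.09 and 9.39 at 4 h and 24 h. Of the 23 tested genes on its list, which also covers nitric oxide and amino acid enzymes, 13 rose and 6 fell, with a median of 0.47. Ass1, which recycles citrulline to arginine, and the cystine transporter gene Slc7a11 rose by 3.38 and 3.10, the former named after its value was seen and with 38.6% of its windows shared. Psat1 of serine synthesis fell by 1.39 in the authors' deposited table, beside 1.44 and 0.64 at the earlier times, and glutamine synthetase (Glul) and Kynu fell by 0.68 and 0.67.

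Glycolytic genes rose in 16 of 24 tested members and fell in 5, with the median at 0.47 in the authors' deposited table beside 0.27 and 0.85 at 4 h and 24 h. The largest changes were in control points and transporters: Pfkfb3, which makes the activator of phosphofructokinase, rose by 2.18, the sugar transporter gene Slc2a6 by 1.91 and the lactate exporter gene Slc16a3 by 1.13. Ldha, lactate dehydrogenase, rose by 0.59 in the authors' deposited table. The glucose transporter gene Slc2a3 fell by 0.70, Pfkfb4 by 0.55 and Slc16a1 by 0.45. Of 12 pentose phosphate genes 1 rose, Rpe by 0.68, and 5 fell, among them Taldo1 by 0.50 and G6pdx by 0.30.

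Genes encoded in mitochondrial DNA were mostly lower. None of the 11 tested protein-coding genes of mitochondrial DNA rose and 9 fell, with the median at -0.85 in the authors' deposited table, beside 0.36 and -0.85 at 4 h and 24 h. Outside this list, 2 of 2 tested mitochondrial tRNA genes and 1 of 2 tested mitochondrial rRNA genes fell. mt-Cytb of complex III, whose windows are not shared with any other gene, fell by 1.28. mt-Co3 at -1.88 and mt-Atp6 at -1.27 (-1.93 by edgeR) also fell, but 99.9% and 99.5% of their windows occur in other genes. mt-Co1, named after its value was seen, stood at 0.01 in the authors' deposited table and was not called (DESeq2 adjusted p 0.867).

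Of 76 nuclear genes of oxidative phosphorylation, 15 rose and 35 fell by DESeq2, with the median at -0.09 in the authors' deposited table; edgeR called 5 higher and 51 lower. Cycs, cytochrome c, rose by 1.38, with 25.9% of its windows shared, and Ndufa4 fell by 1.01. In the citric acid cycle list 11 of 33 rose (33.3%) and 12 fell (36.4%) by DESeq2, against 7 and 16 by edgeR. Of all genes tested, 29.5% and 25.8% were called higher and lower by DESeq2. Idh1, the cytosolic isocitrate dehydrogenase, fell by 1.11 with a standard error of 0.044, Pdk2, which inhibits pyruvate dehydrogenase, by 0.93, and Mpc1, the pyruvate carrier, by 0.89 in the authors' deposited table. Mdh2 and Ogdh rose by 0.56 and 0.44.

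For mitochondrial biogenesis, 7 of 20 tested genes rose (35.0%) and 8 fell (40.0%) by DESeq2, or 6 and 12 by edgeR. The DESeq2 shares of all genes tested were 29.5% and 25.8%. The coactivator genes Ppargc1b and Pprc1 rose by 1.06 and 1.04 in the authors' deposited table. The mTOR list had 7 of 30 higher (23.3%) and 11 lower (36.7%). Mtor stood at 0.09 and was not called (DESeq2 adjusted p 0.143), Rictor rose by 0.68, and the mTOR inhibitor genes Deptor and Sesn1 fell by 1.42 and 1.41. Hif1a, the hypoxia-inducible factor of activated macrophages, rose by 0.71 and Epas1, its relative HIF-2 alpha, fell by 1.66 in the authors' deposited table, beside 1.76 and -1.20 at 4 h and 1.04 and -4.61 at 24 h. The HIF-1 target list as a whole had 10 of 21 higher and 8 lower.

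Fatty acid oxidation was lower as a list. None of its 22 tested genes rose and 16 fell by DESeq2, all under 2-fold, with the median at -0.35 in the authors' deposited table and -0.43 and -0.45 at 4 h and 24 h; edgeR called 1 higher and 18 lower. Acaa2, Acadm and Echs1, enzymes of the mitochondrial spiral, fell by 0.75, 0.75 and 0.69. Lipid uptake and storage was mixed, with 9 of 25 higher and 8 lower (7 and 11 by edgeR): Acsl1, which activates fatty acids, rose by 3.22, while Angptl4 and the lipase gene Lpl fell by 3.27 and 0.73 in the authors' deposited table.

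Cholesterol synthesis and uptake had 7 of 26 genes higher (26.9%) and 12 lower (46.2%), or 5 and 17 by edgeR. Idi1 at -0.73 was among the lowest in the authors' deposited table. In the efflux and oxysterol list, 8 of 18 rose and 8 fell (6 and 9 by edgeR). Nr1h3, the oxysterol receptor LXR alpha, rose by 3.00, and Ch25h, which makes 25-hydroxycholesterol, by 2.59 (3.60 by edgeR). Cyp27a1, the mitochondrial sterol 27-hydroxylase, fell by 2.04 and the apolipoprotein gene Apoc1 by 1.90 in the authors' deposited table.

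Most mitotic genes were lower. Of 38 tested genes of the cell cycle and mitosis 8 rose and 28 fell, with the median at -0.66 in the authors' deposited table beside -1.75 and -3.16 at 4 h and 24 h. Cyclin B2 (Ccnb2), the spindle gene Aspm and Cdc20, an activator of the anaphase-promoting complex, fell by 1.55, 1.52 and 1.49, and stood at -7.76, -7.67 and -6.49 at 24 h. Mki67, the proliferation marker, fell by 0.79 in the authors' deposited table. The highest members were cyclin genes of the phase before DNA synthesis, Ccnd2 at 2.42, Ccnd1 at 1.02 and Ccne1 at 0.88.

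Among 30 genes of DNA replication and nucleotide supply, 14 rose and 3 fell by DESeq2, with the median at 0.16 in the authors' deposited table; edgeR called 7 higher and 5 lower, so the excess of higher genes was smaller in those columns. The medians at 4 h and 24 h were -1.16 and -0.61. The helicase subunit genes Mcm3 and Mcm2 rose by 0.61 and 0.57, and stood at -1.67 and -2.58 at 4 h in the authors' deposited tables. Thymidine kinase (Tk1), Rrm1 and Pcna fell by 0.67, 0.27 and 0.16.

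Genes of macrophage identity changed in both directions in equal number. Of 32 tested lineage genes 16 rose and 16 fell, with the median at -0.10 in the authors' deposited table. Cebpb and Cebpd, transcription factors of the acute-phase response, rose by 1.53 and 0.93, and Adgre1, which encodes F4/80, by 1.17. Spi1 (PU.1), the factor that specifies myeloid cells, rose by 0.31 and Csf1r, the receptor of the M-CSF in the medium, fell by 0.54 in the authors' deposited table. Besides Gpr34, the lowest were Ccr2, the receptor that brings monocytes out of the marrow, at -2.51 and F13a1, coagulation factor XIII, at -2.24.

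Chemokine receptors rose in 9 of 13 tested members and fell in 2 (9 and 4 by edgeR), with the median at 0.53 in the authors' deposited table. Fpr1 and Fpr2 also belong to this list, followed by Ccrl2, a receptor without signalling of its own, at 2.82, while Ccr2 and Ccr1 fell by 2.51 and 1.18. Adhesion genes rose in 13 of 20 and fell in 4 (11 and 6 by edgeR), with a median of 0.39. The integrin chain gene Itgb7 rose by 2.90 beside 0.14 and 0.61 at 4 h and 24 h, and Vcam1 by 1.91, and Itga4, a partner of Itgb7, fell by 1.09 in the authors' deposited table.

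Matrix proteases and matrix genes rose in 10 of 23 tested members and fell in 7. After Lox, Mmp14, a membrane-bound collagenase, rose by 4.00, with 4.01 at both earlier times in the authors' deposited tables, and the protease inhibitor gene Serpinb2 by 2.69 (3.68 by edgeR), while osteopontin (Spp1) fell by 0.93. The lysosomal list had 19 of 34 higher and 7 lower by DESeq2 but 10 and 14 by edgeR, so its direction is not settled. Ctsz, Gla and Ctsc rose by 1.19, 0.86 and 0.83, and Atp6v0d2 and Ctsf fell by 3.97 and 1.36 in the authors' deposited table.

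Iron genes rose in 11 of 19 tested members and fell in 6, with the median at 0.49 in the authors' deposited table. Lcn2 led this list too, and Slc40a1, the iron exporter ferroportin, fell by 2.34 beside -5.96 and -4.49 at 4 h and 24 h. Of 24 NRF2 and antioxidant genes 13 rose and 7 fell. Slc7a11 and Sod2, the mitochondrial superoxide dismutase, rose by 3.10 and 2.39 and Sod1, the cytosolic form, fell by 0.53 in the authors' deposited table.

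Inflammasome and lytic death genes rose in 11 of 21 tested members and fell in 2 (11 and 8 by edgeR), led by Mefv (pyrin) at 3.80 in the authors' deposited table, with Casp4, the sensor of cytosolic endotoxin, at 1.04 and Nlrp1b at -1.07. The unfolded protein and stress list had 7 of 22 higher (31.8%) and 9 lower (40.9%), or 5 and 12 by edgeR, with the transcription factor gene Ddit3 (CHOP) at 1.68. Histone and DNA modifying enzymes rose in 13 of 36 and fell in 12 (7 and 20 by edgeR), shares of 36.1% and 33.3% that lie near the 29.5% and 25.8% of all genes tested. Hdac7 rose by 0.91, the maintenance methyltransferase gene Dnmt1 by 0.45, and Tet1, which oxidises methylcytosine, and the methyltransferase gene Dnmt3b fell by 1.19 and 1.12 in the authors' deposited table.

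The list medians of the 3 times are set side by side here. The median of the cytokine list was 8.10 at 4 h, 5.77 at 24 h and 1.77 at 3 d in the authors' deposited tables, and that of the interferon list 4.75, 3.84 and 2.04. For class II and costimulation the values were 1.29, 2.66 and 1.39, for chemokine receptors 0.01, -0.17 and 0.53, and for complement genes 0.59, 0.71 and 0.54. These are descriptions of 3 tables that share their controls, with no test between them.

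**Figure D3:**
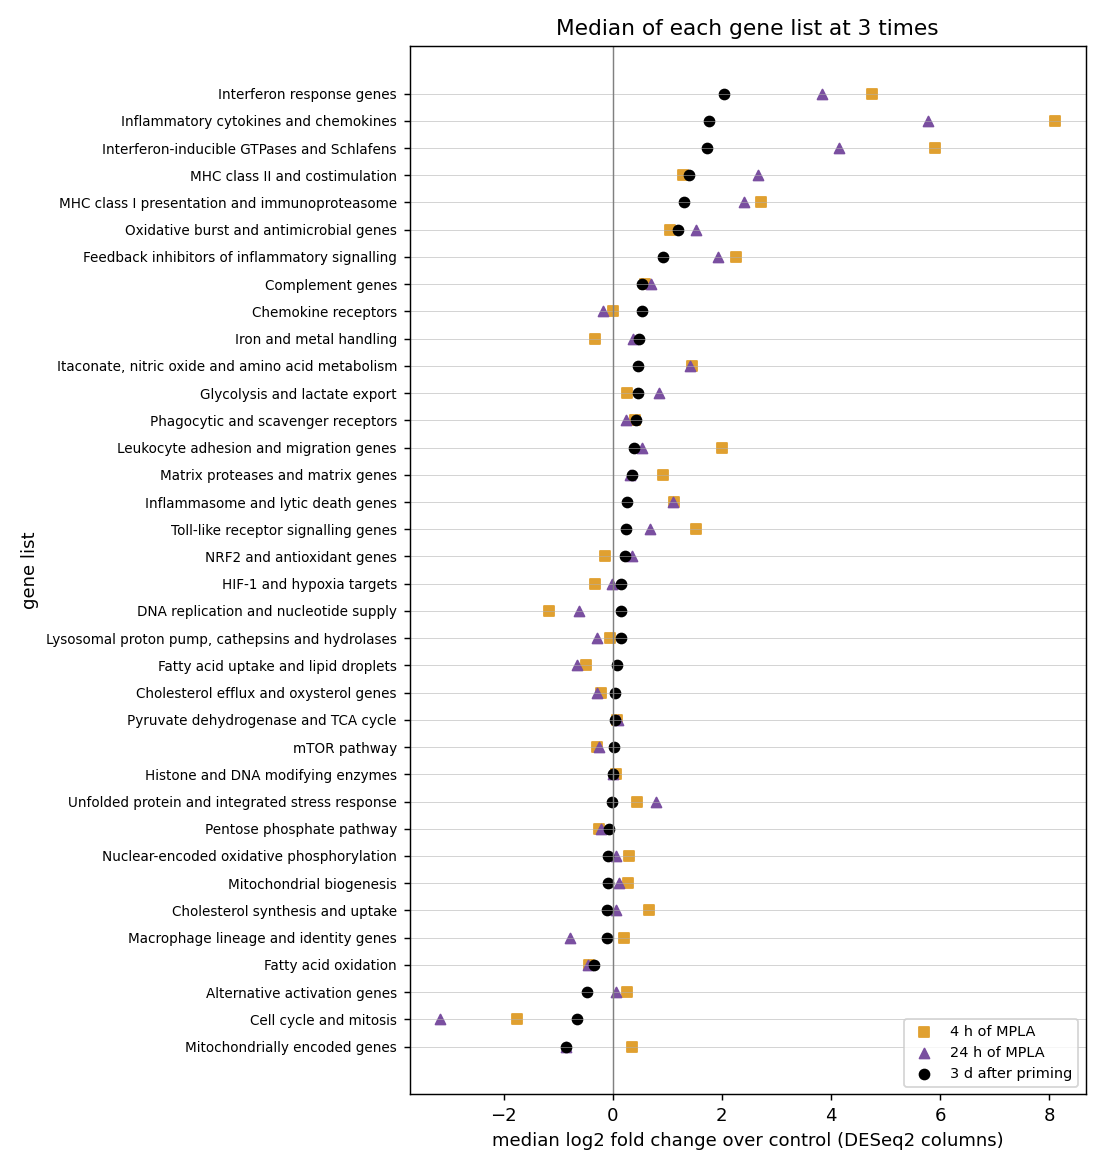
Median log2 fold change over control of each gene list on the x axis, over tested members with reads in both groups (DESeq2 columns of the authors' deposited tables). Squares are 4 h, triangles 24 h of MPLA and circles 3 d after priming; the cytokine list runs from 8.10 at 4 h to 1.77 at 3 d, and the cell cycle list from -3.16 at 24 h to -0.66 at 3 d.

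Several of the raised gene families lie side by side in the genome. In the authors' deposited table, 13 runs of at least 4 neighbouring tested coding genes had all members at least 2-fold higher, and 0 runs had all members at least 2-fold lower. Genes listed at 0 in a group were not left out of these runs. Ly6c2 of the Ly6 run is such a gene, so its fold is not measured. The Schlafen genes on chromosome 11 (82951349 to 83215154 in GRCm38) formed a run of 7, from Slfn9 at 1.09 to Slfn1 at 5.98. The Oas genes of antiviral RNA sensing on chromosome 5 (120730333 to 121010092) formed another of 7, from 1.05 to 2.57, which ends in Rph3a, a gene outside the family. The Ifit genes on chromosome 19 (34550694 to 34650009) formed a run of 6, from 1.33 to 3.42 in the authors' deposited table.

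Other runs held the CC chemokine genes Ccl2, Ccl7, Ccl12 and Ccl8 on chromosome 11 (82035571 to 82116799; 1.87 to 3.90), 5 genes around the Pyhin family of DNA sensors on chromosome 1 (173468485 to 173698395; 3.24 to 5.02) and the Ly6 genes on chromosome 15 (74876987 to 75111970; 1.13 to 4.99) in the authors' deposited table. The class I genes from H2-D1 to H2-Q7 on chromosome 17 (35262730 to 35443773) ran from 1.36 to 6.67 and the Trim30 genes on chromosome 7 (104355382 to 104507849) from 1.31 to 1.89. These are tandem families whose copies share sequence, so reads can be split among neighbours.

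**Figure D4:**
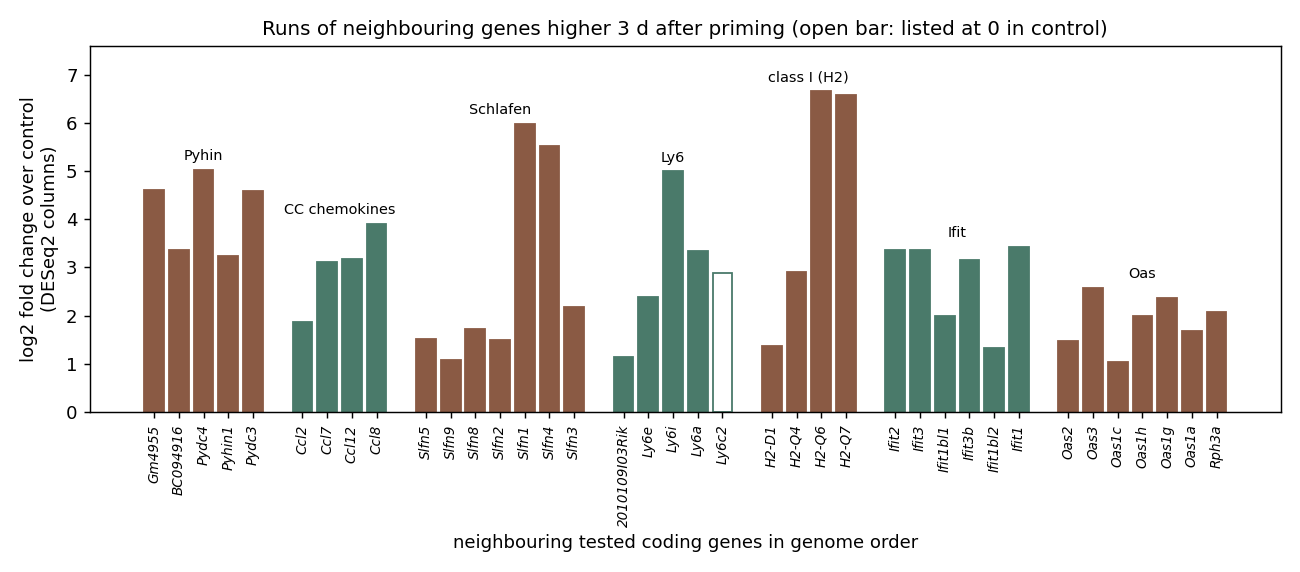
Log2 fold change over control at 3 d on the y axis (DESeq2 columns of the authors' deposited table) for the genes of 7 of the 13 runs, in genome order within a run. The Schlafen run spans 1.09 to 5.98 and the class I run 1.36 to 6.67; the open bar of Ly6c2 is a gene listed at 0 in control, whose fold is not measured.

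Among genes of biotypes other than protein coding, more fell than rose. Of 12624 tested coding genes, 4250 (33.7%) were called higher and 3503 (27.7%) lower, with the median at 0.01 in the authors' deposited table. Of 2487 tested genes of all other biotypes, 206 (8.28%) rose and 389 (15.6%) fell, with a median of -0.19. These biotypes include immunoglobulin genes such as Ighm, T cell receptor segments and polymorphic pseudogenes, so not all of their genes are non-coding. The lean of coding genes turned in the edgeR columns, which called 3330 higher and 5587 lower. The other biotypes together leaned lower in both (281 and 863 by edgeR). An adjusted p was given for 33.4% of the rows of other biotypes and 79.9% of coding rows, and the difference between the biotypes was not tested.

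Long non-coding RNAs followed the same lean. Of 491 tested lincRNAs, 57 (11.6%) rose and 115 (23.4%) fell (63 and 214 by edgeR), and the authors' deposited table gave a median of -0.24. The label is meant for RNAs between coding genes, but 12 of the 57 and 31 of the 115 overlap a tested coding gene. Such a gene was called the same way in 9 and 21 cases, and only the other way in 0 and 5. Reads of such overlapping pairs may not be told apart. A330074K22Rik rose most among them, by 4.94 (7.06 by edgeR), beside 0.94 and 5.93 at 4 h and 24 h, followed by 1110002J07Rik at 3.27 and Gm1720 at 2.91 (4.15 by edgeR). The lowest included Gm13431 at -2.22. Of processed transcripts 27 of 281 rose and 64 fell (35 and 110 by edgeR), and of the unconfirmed transcripts labelled TEC 11 of 277 rose and 48 fell.

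Antisense genes rose in 43 of 466 tested cases and fell in 61 (58 and 155 by edgeR), with the median at -0.21 in the authors' deposited table. Of the 43 that rose, 34 overlap a tested coding gene, and such a gene rose in 25 cases. In 4 others such a gene fell and none rose. Of the 61 that fell, 50 overlap a tested coding gene, and such a gene fell in 30 cases. In 8 others such a gene rose and none fell. Where several coding genes overlap, any called the same way decided the case, which favours agreement. Of all tested coding genes, 33.7% rose and 27.7% fell, and the difference from these shares was not tested. Gm16685, at 2.73 (3.80 by edgeR), lies opposite Il7, at 2.62, and Gm13571, listed at 0 in control, lies opposite Ly75. The libraries were made with a stranded kit, but the sources do not say whether counting used strand, so reads of a gene and of its antisense partner cannot be told apart.

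For the transcripts inside genes named here, both lie on the same strand, so even counting by strand would not separate their reads from those of the host. The sense intronic gene Gm15503, at -1.27, lies in Rgs10, at -1.71, and Gm15513, at -1.57, in Zfyve28, at -1.64, in the authors' deposited table. None of the 39 tested miRNA genes rose and 6 fell, the lowest being Gm22655 at -2.62, which lies in the coding gene Anapc15 at -1.42. Gm23493, at -1.51, lies in Cluap1, which was not called at -0.04, and Gm25540, at -0.87, in Slc16a6, not called at -0.10 in the authors' deposited table. The libraries were enriched for polyadenylated RNA, and mature miRNAs carry no such tail, so these values are not levels of mature miRNAs. Of 43 tested snoRNA genes 0 rose and 2 fell, Gm23455 and Gm24357, both inside Taf1d; by edgeR 2 snoRNA and 2 miRNA genes were called higher and 14 and 16 lower.

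**Figure D5:**
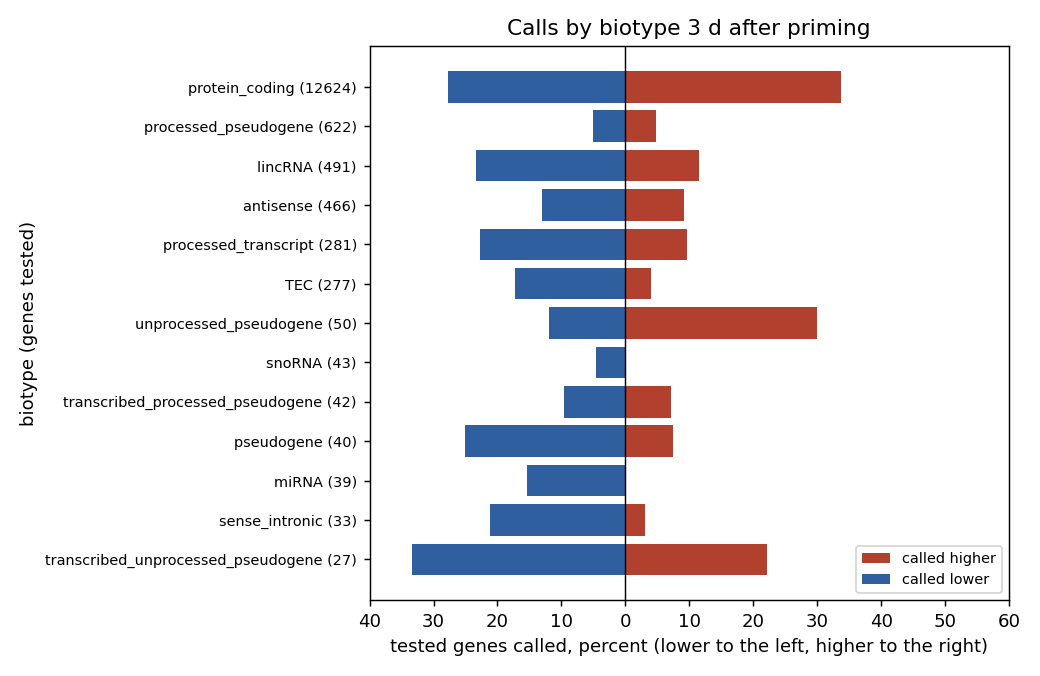
Percent of tested genes called higher (right) and lower (left) at 3 d on the x axis, by DESeq2 adjusted p in the authors' deposited table, for each biotype with at least 20 tested genes (number in brackets). Coding genes were called higher in 33.7% and lower in 27.7%, lincRNAs in 11.6% and 23.4%.

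Pseudogenes varied by kind. Processed pseudogenes, which are copies of messenger RNAs, were called rarely, with 30 of 622 higher and 31 lower (53 and 117 by edgeR), led by Gm19026 at 5.10 with 23% of its windows shared in the authors' deposited table. Unprocessed pseudogenes, which are copies of genes within families, rose in 15 of 50 and fell in 6 (18 and 15 by edgeR). By DESeq2 their share called higher was close to the 29.5% of all genes tested. Their share called lower was below the 25.8% of all genes tested, and these differences were not tested. The excess of higher over lower calls was smaller by edgeR. Gm7609 led this kind at 3.24 (5.10 by edgeR), with 36.5% of windows shared. The polymorphic pseudogene label covered 12 tested genes, of which 7 rose and 3 fell (7 and 5 by edgeR); it holds the interferon-inducible genes Mx2, Cxcl11 and Gbp11.

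T cell receptor variable segments leaned lower as a biotype. Of 8 tested segments 7 fell and 0 rose, with Trav7n-4 among them listed at 0 in the primed libraries, and with a median of -1.54 over those with reads in both groups in the authors' deposited table beside -1.94 and -3.64 at 4 h and 24 h. Trav14d-3-dv8 fell by 3.38 (-4.15 by edgeR), Trav14n-3 by 2.57 and Trav13n-4 by 2.12, all on chromosome 14. From 13.3% of the windows of Trav13n-4 to 77.1% of those of Trav13-4-dv7 are shared with other genes. The T cell markers Cd5 and Cd4 rose by 3.09 and 1.01 in the same table, and their part in the segments' values was not tested.

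Genes without reads in a group are given by count alone. In the authors' deposited table, 2769 genes were listed at 0 in control and 1195 in the primed libraries, beside 2.32 times as many reads in the latter, whose part in the imbalance was not tested. Of the first, 26 were called higher, among them Il23r, the interleukin 23 receptor, the transporter genes Slc6a12 and Slc6a13, Ly6c2, Gbp10 and Hif3a. Of the second, 3 were called lower, Hs3st1, Bex1 and Trav7n-4. These were named after their values were seen, apart from list members, and no fold is given for them.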

How the data were processed

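Gene expression was measured by RNA-seq of poly(A)-selected, stranded libraries, 3 per group, per the labels' protocols. Per the submitters' processing notes, the tools included bcl2fastq, TopHat2, HTSeq, edgeR, DESeq2 and DESeq, with build mm10; versions, annotation release and strand use in counting are not given in the sources used here. The authors deposited, for each comparison, log2 fold changes (DESeq2, edgeR and an unscaled ratio), p-values and adjusted p-values, and a baySeq score (1 minus the likelihood, with an adjusted error rate). The files hold no counts per library, so the planned tests on library values were replaced by the authors' deposited values. Absolute depth is unknown; relative depth was taken as the median gap between the authors' edgeR and unscaled log2 values.

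Here the sign of the deposited log2 values was turned to primed over control, genes were called where the authors' DESeq2 adjusted p was under 0.05, and counts and medians were taken over 36 gene lists, 12 marker lists and all biotypes (Python 3.11.15, pandas 2.3.3). The genes and lists were chosen with earlier results of these data known. Named genes are the 15 highest and lowest coding genes called in the authors' DESeq2 and edgeR columns, the 10 smallest adjusted p per direction, the 3 highest and lowest called members of each list and larger non-coding biotype, and a set of anchor genes; exceptions are marked in the text, and a few genes that the rule names are not reported here. Of the 23248 genes, 23111 matched GENCODE M21 (GRCm38) by Ensembl ID, which gave the positions and, by 50-base windows, the sequence shared with other genes. Promoter sequences are from RefSeq (GRCm38.p6), which matched 79.8% of tested coding genes. The p adjustment and call code used here was tested on simulated p-values, which does not bear on the reliability of the deposited calls. Alternatives were the authors' edgeR and baySeq columns, all 3 methods together, no filter on low counts, a stricter p, a 2-fold minimum, centring on the median and genes with reads in both groups.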

Additional observations from a re-analysis of the deposited data

How the results depend on the processing

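Every alternative here is another column or threshold of the authors' deposited table. The 4456 genes that rose became 3611 with edgeR, 2697 with baySeq, 2635 with all 3 methods together and 964 with a 2-fold minimum. The 3892 that fell became 6450 with edgeR, 1126 with baySeq, 1086 with all 3 together and 786 with a 2-fold minimum. Without the filter on low counts they were 4291 and 3694, at an adjusted p under 0.01 they were 3953 and 3256, and with reads required in both groups 4430 and 3889; centring on the median, where no test was refitted, left both counts as they were. Of 307 named genes, 302 were called; with edgeR 301 of these were called in the same direction and Gm10557, a pseudogene, was no longer past the threshold, at 0.25. Of the 5 not called, Mtor turned sign, from 0.09 to -0.04. Sizes moved more: for 36 of the 302 the edgeR fold was over 1.5 times larger and for 0 it was over 1.5 times smaller. The edgeR columns differ from the DESeq2 columns in test, filter and scaling together. They may also differ in whether log2 values of genes with few reads were drawn towards 0, which the sources do not state. The cause of these differences was not tested. List counts stayed within 1.5 times with edgeR in 76 of 96 cases, and those of biotypes in 9 of 26. No paired analysis was possible because the tables hold no values of single libraries; for the same reason the replicate block and leaving out each replicate were not run, so no statement is made on how far a single library decides a result. Of the 23248 listed genes, 8137 have no adjusted p, so no call on them can be made.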
